A study of Mus musculus with 10 samples.

Results

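The genes described here drive the cell division cycle and copy the genome: 44 genes for replication licensing, nucleotide supply, cyclins and their kinases, E2F factors, mitosis and cyclin-dependent kinase (CDK) inhibitors. They were chosen by name, and 40 of 44 were measured under a single gene symbol among 30142 genes so named. Ccnb1, Ccnd1, Foxm1 and Mcm7 were not analysed here.

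Their transcripts were measured in luminal epithelial cells of the mouse prostate, the secretory cells that line its ducts, on Affymetrix ClariomD arrays with 1 array per sample. All mice were male and carried the transgenes Hoxb13-rtTA and TetO-H2BGFP, so that cells expressing Hoxb13, a transcription factor of the prostate lineage, made a green histone when given doxycycline (2 mg/ml in the water for 1 week, in every group). The sort kept green cells positive for CD24 with an intermediate level of CD49f. It removed leukocytes by their surface proteins CD45, F4/80 and CD11b. Mice of the intact group were not castrated (n = 3 arrays; no age is given for them in the sources used here). Those of the castrated group had both testes removed at 12 weeks of age and regressed for 6 weeks (n = 3). Those of the regenerated group were castrated in the same way and then carried subcutaneous silastic testosterone implants for 4 weeks (n = 4). No castrated group without testosterone was kept for the same total time, so testosterone and time since castration cannot be told apart. The labels call the arrays of a group biological replicates, and how many animals went into each is not given.

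In the division cycle, D cyclins with Cdk4 or Cdk6 start the passage out of the resting state, and E cyclins with Cdk2 then release E2F factors from retinoblastoma proteins, which turns on the genes for licensing and copying DNA. A and B cyclins with Cdk1 carry the cell through mitosis, and CDK inhibitors restrain each of these kinases. The adult luminal epithelium divides rarely. It shrinks after castration and is known to divide again when androgen is first returned.

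All 7 measured luminal markers (Krt8, Krt18, Cd24a, Epcam, Cdh1, Hoxb13 and Pbsn) lay above background in all 10 arrays, where background means the 95th percentile of the 23 background control probe sets of the same array. Hoxb13 itself, which drives the sorting colour, was 2.65 ± 0.42 (SE) log2 lower in castrated than in intact arrays (limma adjusted p = 0.00416). Of the 7 markers, Krt8, Krt18 and Cd24a were higher in castrated arrays at a limma adjusted p under 0.05, and only Hoxb13 was lower. That was 57.1% of the list, against 8.01% of all genes, and the median difference of the list was 0.59 log2. Of 11 leukocyte markers, 1 to 3 were above background in any array, and Ptprc, which encodes CD45, read 3.55 to 3.76. Values are log2 intensities after the authors' RMA normalization, in which a change of 1 is a doubling. The background limit itself ran from 4.09 to 5.0 between arrays. A gene is called changed at an adjusted p under 0.05 in a limma model of all 10 arrays. In sorted cells measured in bulk, fewer cells expressing a gene and less RNA per cell cannot be told apart.

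The transcripts of mitosis were near background in most arrays of every group. Of 12 measured S to M phase genes, only Ube2c, the ubiquitin-conjugating enzyme of the anaphase-promoting complex, was above background in all 10 arrays (4.95 to 5.89). Aurka, a spindle-pole kinase, was above it in 8 arrays (4.66 to 5.07 over all 10). Above the highest background probe set, Ube2c lay in 7 arrays and Aurka in 2. The 5222 intronic negative control probe sets, not used for the limit, had array medians of 4.85 to 5.19. Aurkb, Bub1 and Birc5, which act at centromeres and kinetochores, were above background in none, and their values lay between 3.18 and 4.11. The other 7 were above it in 1 to 3 arrays. Because the limit differed between arrays, the number above it tended to move with it. That number was 7 of 12 in regenerated replicate 1, where the limit was lowest, and 1 of 12 in castrated replicate 1, where it was 4.95. Regenerated replicate 4, with the highest limit, 5.0, had 3 of 12 above it.

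Mki67, the proliferation antigen Ki-67, stood apart in a single array. It read 3.95, 4.09 and 3.58 in intact, 3.73, 3.99 and 3.63 in castrated, and 3.71, 3.65, 3.77 and 6.37 in regenerated arrays. The last value belongs to regenerated replicate 4, and the other 9 arrays lay within 0.51 log2 of each other, below background. The group means were 3.87 ± 0.26 (SD, n = 3), 3.78 ± 0.19 (n = 3) and 4.38 ± 1.33 (n = 4), and no comparison called the gene (limma adjusted p = 0.961 after castration, 0.640 after testosterone and 0.867 between the regenerated and intact groups). Top2a, the topoisomerase that untangles replicated chromosomes, read 4.53 to 4.66 in intact, 4.41 to 4.58 in castrated and 4.54 to 4.79 in regenerated arrays, with its highest value again in regenerated replicate 4. Its groups overlapped. The cyclins of this phase differed as little. Ccna2, cyclin A2, lay at 4.05 to 4.29 in intact, 4.03 to 4.29 in castrated and 4.25 to 4.48 in regenerated arrays, and Ccnb2, cyclin B2, at 4.28 to 4.42, 4.39 to 4.59 and 4.35 to 4.83. Their partner Cdk1 lay at 4.22 to 4.43, 4.30 to 4.45 and 4.41 to 4.63. None of these 3 genes passed the test in any comparison.

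**Figure D1:**
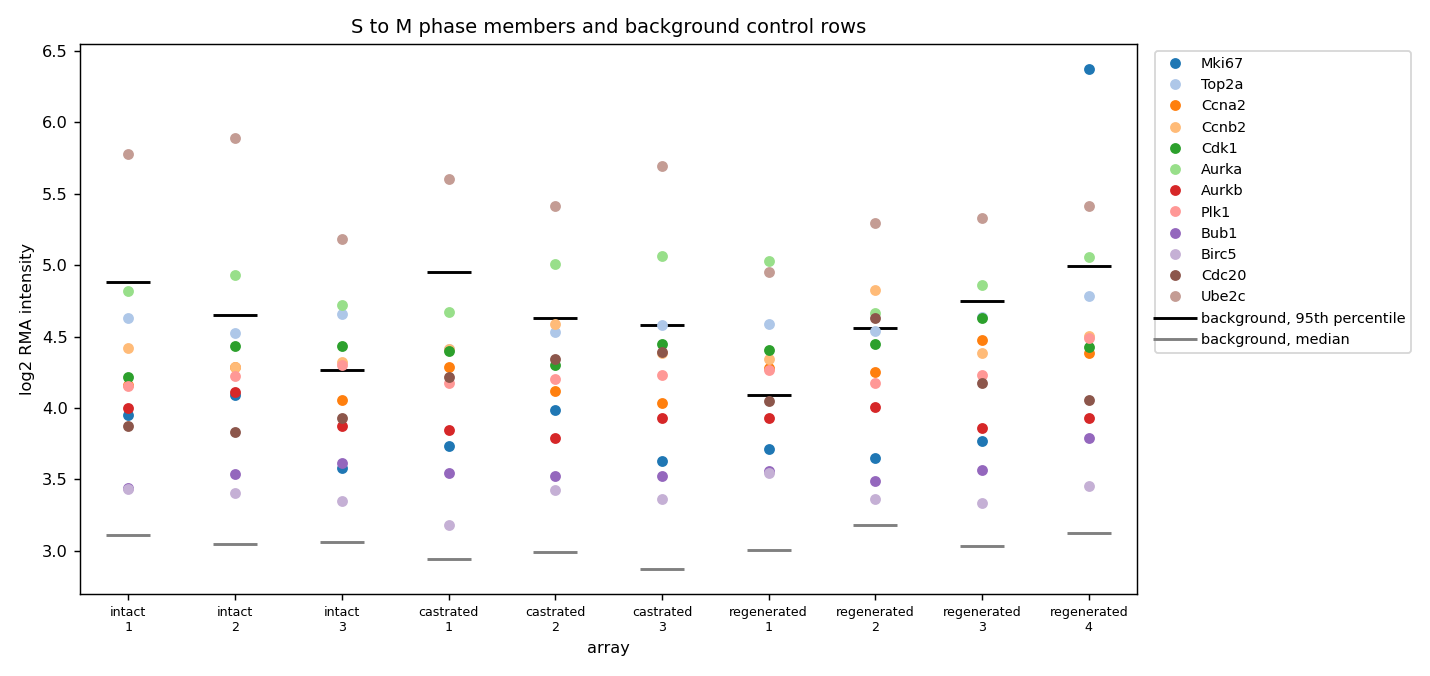
Log2 RMA intensity (vertical axis) of the 12 measured S to M phase genes in each of the 10 arrays, 1 colour a gene, with horizontal bars for the 95th percentile (black) and the median (grey) of that array's background control probe sets. Most points lie between the bars, Ube2c lies above the black bar in every array, and Mki67 lies above it only in regenerated replicate 4, at 6.37.

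In regenerated replicate 4, Mki67 was at least 1.91 log2 above the mean of the other 3 regenerated arrays. Each of these was taken at its background limit (4.09 to 4.75, mean 4.47) because the gene lay below it there. For the 12 S to M phase genes the median difference was 0.12, and 6 of 12 (50%) were highest in this array, against 30.9% of all genes. For a list of 48 other mitotic genes the median was 0.09 and 52.1% were highest there. These 48 differed by -2.09 to 0.88, the lowest being the condensin subunit Ncaph, at 7.51 against 9.20 to 9.87, and the highest Smc4, another condensin subunit. Castrated replicate 3 was highest of its group in 58.3% of both lists, against 46.0% of all genes. A share above that of all genes was thus not seen in regenerated replicate 4 alone. The castrated group has 3 arrays and the regenerated group 4, so the shares of the 2 arrays cannot be compared directly.

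Bub1, a spindle checkpoint kinase, read 3.79 in regenerated replicate 4 and 3.49 to 3.57 in the other regenerated arrays. Plk1, a mitotic kinase, read 4.49 against 4.17 to 4.27, and E2f8, an S phase repressor of E2F targets, 3.90 against 3.48 to 3.67. All these values lay below the background limit of that array, 5.0. Several replication genes lay lower in that array. Pcna was 10.52 there against 11.05 to 11.26, the thymidylate synthase gene Tyms 6.79 against 7.11 to 8.05, and 16 of 40 other replication genes (40%) were lowest in it and 10 (25.0%) highest, where 32.2% of all genes were lowest and 30.9% highest. Those lowest included the primase Prim1 (5.07 against 5.99 to 6.19) and the clamp loader subunit Rfc2 (7.20 against 8.12 to 8.33). Those highest included Pola2, a subunit of the complex of DNA polymerase alpha with primase, at 6.62 against a mean of 5.79. Other markers differed in that array too. Hoxb13 was 8.26 against 9.61 to 10.27, the endothelial marker Emcn 5.07 against 3.83 to 4.11, and 5 of 6 endothelial, 6 of 10 stromal and 3 of 11 leukocyte markers were highest in it. The mean over the leukocyte list was 4.25, within the 4.14 to 4.52 of the other regenerated arrays, that over the stromal list 4.71 against 4.53 to 4.70, and that over the endothelial list 4.13 against 3.72 to 3.86. Only 1 leukocyte, 2 stromal and 1 endothelial markers were above background there. The leukocyte one was the T cell gene Cd3e, at 7.38 against 5.73 to 6.56 in the other regenerated arrays. Cd3d, another T cell gene, read 4.04 against 3.99 to 4.22. The part of these markers in the Mki67 value was not tested.

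**Figure D2:**
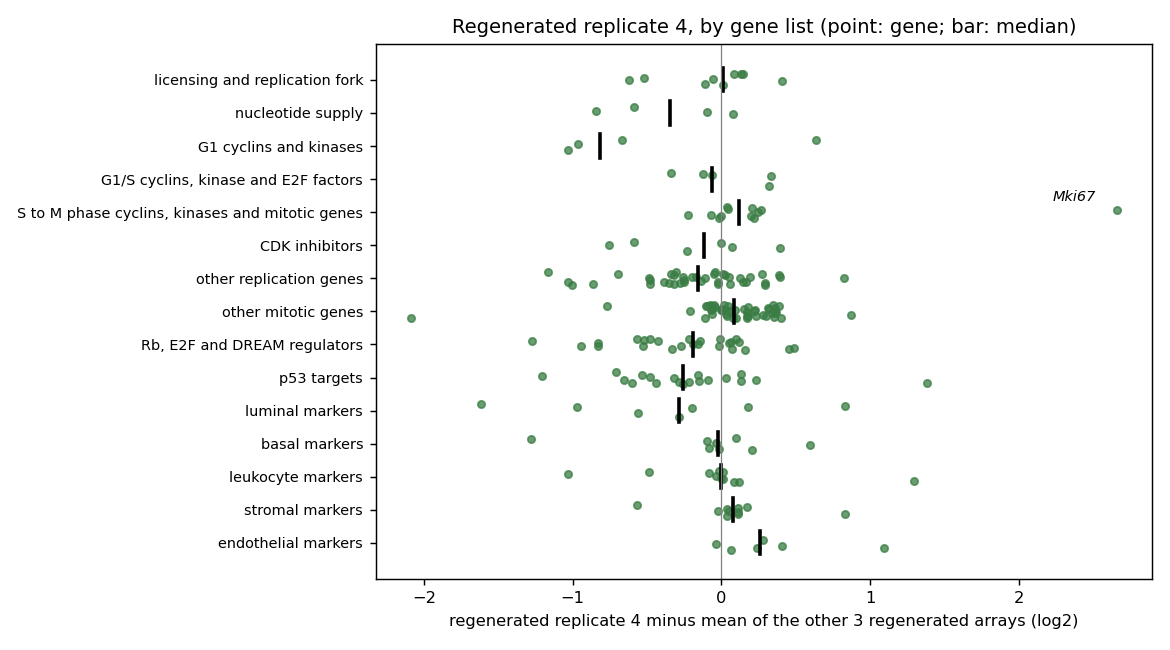
Difference in log2 RMA intensity between regenerated replicate 4 and the mean of the other 3 regenerated arrays (horizontal axis), with 1 point a gene, a black bar at the median and 1 line for each gene list. Mki67 lies at 2.66 by its measured values, which are below background in the other 3 arrays, and the S to M phase list has a median of 0.12. The point at -2.09 among the other mitotic genes is Ncaph.

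The start regions of these genes carry words that cell cycle factors are known to read: the E2F core (TTCCCGC in one form, TTCGCGC in another, and also TTGCCGC or else TTGGCGC), the cell cycle homology region (CHR, TTTGAA), and the CCAAT box. In the 250 bases before the start site, searched on both strands in RefSeq promoters of GRCm38.p6, an E2F core was present in 11 of 33 measured genes with a promoter in that table (33.3%), against 9.01% of 27025 genes. A CHR was present in 9 of 33 (27.3%, against 18.3%) and a CCAAT box in 20 of 33 (60.6%, against 37.5%). Among 10 S to M phase genes the E2F core was found in 2, the CHR in 6 and CCAAT in 9. Aurkb, Ccna2, Ccnd2, Ccne2, Cdkn1c, Gins2 and Mcm4 are named only. A match is a description of letters and not a site.

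Shown are the 150 bases before the start site, 5′ to 3′ on the strand of the gene, for 2 replication genes that rose after castration and for Mki67 and Cdk1 of the mitotic group, with the matched words in capitals. All lie on the minus strand of GRCm38.p6: Pcna at chr2:132253181-132253330, Mcm6 at chr1:128359706-128359855, Mki67 at chr7:135716380-135716529 and Cdk1 at chr10:69352913-69353062. In Mcm6 each capital run of the E2F core holds a match on both strands, which overlap.
Pcna: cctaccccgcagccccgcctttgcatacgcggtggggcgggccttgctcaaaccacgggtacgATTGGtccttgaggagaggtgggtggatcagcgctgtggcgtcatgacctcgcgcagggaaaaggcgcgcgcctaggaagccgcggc
Mcm6: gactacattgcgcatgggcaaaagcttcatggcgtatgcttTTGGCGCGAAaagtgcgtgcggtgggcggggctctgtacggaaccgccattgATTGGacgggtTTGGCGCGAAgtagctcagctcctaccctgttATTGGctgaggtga
Mki67: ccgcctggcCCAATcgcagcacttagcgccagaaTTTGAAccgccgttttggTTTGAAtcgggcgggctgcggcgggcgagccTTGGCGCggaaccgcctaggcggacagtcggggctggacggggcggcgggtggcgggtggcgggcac
Cdk1: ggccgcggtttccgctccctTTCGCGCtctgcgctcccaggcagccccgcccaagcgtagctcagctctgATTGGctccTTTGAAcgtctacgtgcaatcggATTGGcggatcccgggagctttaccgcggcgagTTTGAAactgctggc
The Mcm6 stretch holds that E2F run at 2 places and a CCAAT box in reverse at 2 more, whereas the Pcna stretch holds only a reversed CCAAT box among these words. The Mki67 stretch has 2 CHR words, an E2F core and a CCAAT box, and that of Cdk1 has 2 CHR words, 1 E2F core and 2 reversed CCAAT boxes.

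The first comparison asks how regression after castration altered these genes. Pcna, the sliding clamp of DNA polymerase, read 10.65, 11.18 and 10.86 in intact and 12.25, 12.29 and 12.38 in castrated arrays. Every castrated array was above every intact one, and the gene rose by 1.41 ± 0.25 log2 (SE; limma adjusted p = 0.00731). Mcm4 and Mcm6, subunits of the ring-shaped replicative helicase, rose by 0.66 ± 0.16 and 0.68 ± 0.12 (limma adjusted p = 0.0303 and 0.00780). Mcm4 read 5.55, 5.50 and 5.90 in intact against 6.50, 6.18 and 6.25 in castrated arrays, and Mcm6 3.61, 3.71 and 3.64 against 4.21, 4.28 and 4.50. Neither overlapped, and Mcm6 was below background in all 10 arrays. Mcm4 lost its call when intact replicate 1 was left out (limma adjusted p = 0.127), and likewise for intact replicate 2 (0.127) or castrated replicate 1 (0.0921), 2 (0.0547) or 3 (0.0642). The same held with only the 2 groups compared in the model (limma adjusted p = 0.0520).

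Of 9 measured genes of licensing and the replication fork 3 rose, none fell and 6 did not pass. In all, 5 of the 40 genes rose and none fell, 12.5% of them, where 8.01% of all genes tested were called, 4.82% higher and 3.19% lower. The median change of the licensing group was 0.34 log2, against 0.01 over the 40 genes and 0.04 over all genes. Gins2, of the helicase-activating GINS complex, read 5.43 to 5.52 in intact and 5.78 to 6.33 in castrated arrays, without overlap, and did not pass (0.51 ± 0.15, limma adjusted p = 0.0643). Mcm2, of the same helicase ring, was on the other side, at 6.05 ± 0.23 (SD, n = 3) in intact and 5.73 ± 0.22 (n = 3) in castrated arrays. Mcm3, Mcm5 and the loading factors Cdc6 and Cdt1 differed by 0.08 to 0.34 log2 and did not pass, although all 3 castrated arrays of Mcm3 and of Mcm5 were above the intact ones.

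None of the 4 genes for enzymes that make deoxynucleotides passed. Tyms read 6.94, 7.39 and 7.68 in intact and 8.45, 8.16 and 8.19 in castrated arrays, and Rrm1, the large subunit of ribonucleotide reductase, 5.40, 5.18 and 5.23 against 6.20, 5.51 and 6.16. Both groups were without overlap, and neither gene passed (0.93 ± 0.32 and 0.68 ± 0.20 log2, limma adjusted p = 0.119 and 0.0708). Rrm1 passed when castrated replicate 2 was left out (0.91 log2, limma adjusted p = 0.0218). Rrm2, the small subunit that S phase cells make, was 4.27 ± 0.19 (SD, n = 3) in intact and 3.85 ± 0.07 (n = 3) in castrated arrays, near background. Thymidine kinase, Tk1, was 5.01 ± 0.26 and 4.82 ± 0.06.

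Among the G1 genes, Cdk6 rose, and the measured D cyclins, Ccnd2 and Ccnd3, lay lower without passing. Cdk6 read 6.42, 4.88 and 5.82 in intact and 8.22, 7.72 and 7.85 in castrated arrays, a rise of 2.22 ± 0.38 log2 (SE; limma adjusted p = 0.00590). Its partner Ccnd2, cyclin D2, read 6.84, 8.26 and 10.44 against 6.16, 5.68 and 6.20. The castrated arrays agreed closely and lay below all intact ones, but the intact arrays spread over 3.60 log2, and the gene did not pass (-2.49 ± 0.87, limma adjusted p = 0.121). Ccnd3, cyclin D3, read 7.70, 7.58 and 7.90 against 7.15, 7.01 and 7.03 (-0.66 ± 0.26, limma adjusted p = 0.178), and it passed without regenerated replicate 4 (limma adjusted p = 0.0226), an array of neither group that enters the shared estimate of spread. Cdk4 was 11.53 ± 0.23 (SD, n = 3) and 11.93 ± 0.13 (n = 3), without overlap, and did not pass.

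Genes of the step into S phase did not pass. Ccne1, cyclin E1, read 5.65, 5.93 and 5.52 in intact and 4.64, 4.63 and 5.83 in castrated arrays. Castrated replicate 3 lay among the intact arrays, and without it the gene passed (-1.06 log2, limma adjusted p = 0.0102, against 0.224 with it). Ccne2, cyclin E2, lay at 4.45 to 4.87 in intact and 4.28 to 4.58 in castrated arrays. E2f1 and E2f8 were near background, at 4.18 ± 0.19 (SD, n = 3) and 3.62 ± 0.12 in intact and 3.94 ± 0.06 and 3.59 ± 0.05 in castrated arrays. None of the 12 S to M phase genes was called by limma, with a median of -0.02 log2. Only 1 had an unadjusted limma p under 0.05 (8.33%, against 37.5% of the 40 genes and 20.7% of all genes). This was Cdc20, an activator of the anaphase-promoting complex, at 3.83 to 3.93 in intact and 4.22 to 4.40 in castrated arrays (limma adjusted p = 0.0919). It passed when regenerated replicate 2 was left out (0.0122).

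Of the CDK inhibitors, Cdkn1a, which encodes p21, rose. It read 8.81, 9.11 and 8.05 in intact and 10.13, 10.22 and 11.44 in castrated arrays, without overlap (1.94 ± 0.41 log2, SE; limma adjusted p = 0.0167). Leaving out intact replicate 1 or 3 ended the call (limma adjusted p = 0.0583 and 0.0533). Cdkn1b, which encodes p27, read 8.14, 7.74 and 7.54 against 6.76, 6.73 and 7.37, on the other side and also without overlap (-0.86 ± 0.26, limma adjusted p = 0.0745). It passed when castrated replicate 3 (0.0491) or regenerated replicate 4 (0.0406) was left out. Cdkn1c, p57, was 5.80 ± 0.05 (SD, n = 3) and 6.14 ± 0.25 (n = 3). The inhibitors of the INK4 family, Cdkn2a, Cdkn2b and Cdkn2c, were below background in all 10 arrays, between 3.55 and 4.37. Castrated replicate 3 was the highest castrated array for all 6 inhibitors, against 46.0% of all genes. Of the 40 genes, 18 (45.0%) had groups without overlap, where 28.9% of all genes had.

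Markers of other cells moved with the same groups. The mean over 11 leukocyte markers was 4.20 to 4.36 in intact and 4.58 to 5.07 in castrated arrays, with Ptprc at 3.57 to 3.76 throughout these 6 arrays. That over 8 basal markers was 5.65 to 5.78 and 6.02 to 6.25. The basal list had a median difference of 0.46 log2, and 7 of the 8 had a higher mean in castrated arrays. Its called genes were Krt14 and Krt17, both higher (25.0%, against 8.01% of all genes), Krt17 by 1.31 log2. The leukocyte list had a median difference of 0.15 log2. Its widest member, the T cell gene Cd3e, read 5.40 to 8.18 in intact and 8.26 to 11.76 in castrated arrays (3.39, limma adjusted p = 0.0507). The other T cell gene, Cd3d, read 4.01 to 4.21 and 3.93 to 4.14. Of the 11 only Itgam, which encodes CD11b, was called (9.09%, against 8.01% of all genes). It read 3.86 to 3.99 in intact and 4.19 to 4.42 in castrated arrays, below background in these 6 arrays. The mean over 10 stromal markers was 4.64 to 4.75 in intact and 4.24 to 4.54 in castrated arrays, with a median difference of 0.02. Of these 10 only Dcn, a fibroblast proteoglycan, was called (-4.70, limma adjusted p = 0.00143). The mean over 6 endothelial markers was 3.78 to 3.79 and 3.72 to 3.84. Their part in the changes of cell cycle genes was not tested.

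**Figure D3:**
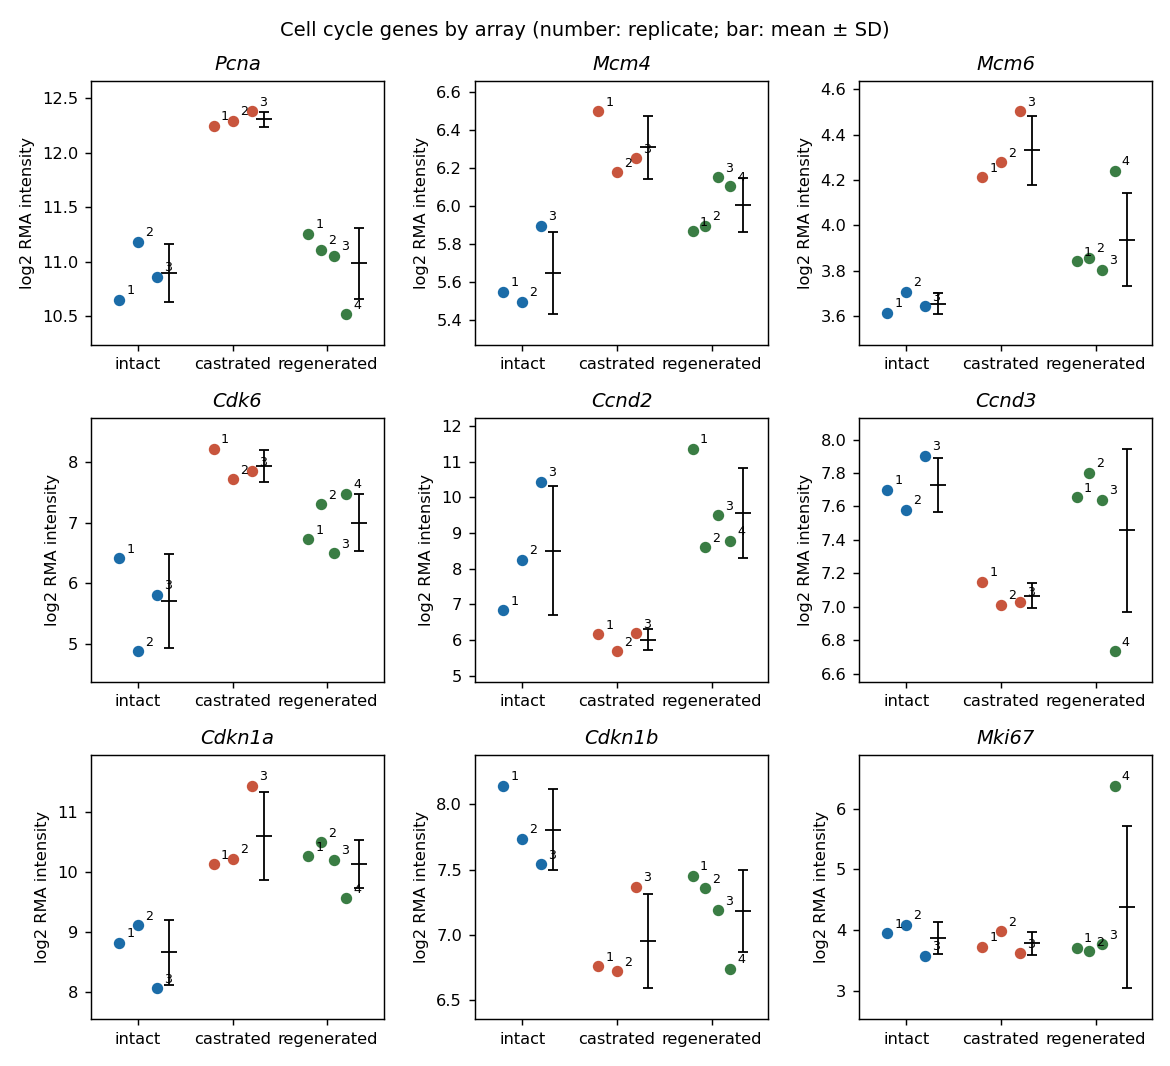
Log2 RMA intensity (vertical axes, each with its own range) of 9 cell cycle genes in the intact (n = 3), castrated (n = 3) and regenerated (n = 4) arrays, with 1 point an array, its replicate number beside it, and a bar for the mean ± SD of the group. Pcna and Cdk6 are highest in the castrated arrays, Cdkn1a is above the intact arrays there and overlaps the regenerated ones, Ccnd2 is lowest in the castrated arrays, and Mki67 stands at 6.37 in regenerated replicate 4 alone.

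The second comparison asks how these genes differed once testosterone had been given. It shares its castrated arrays with the first, so a change the other way is not independent of it. Pcna fell to 11.26, 11.11, 11.05 and 10.52 in the 4 regenerated arrays, all below the castrated ones (-1.32 ± 0.23 log2, SE; limma adjusted p = 0.00960). Ccnd2 rose to 11.37, 8.60, 9.50 and 8.79, all above the castrated arrays, by 3.55 ± 0.81 (limma adjusted p = 0.0334). That call was lost without any castrated replicate (limma adjusted p = 0.0814, 0.117 and 0.0887 for replicates 1 to 3), without regenerated replicate 1 (0.0541), 2 (0.0504) or 3 (0.0741), and without intact replicate 2 (0.0557).

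These were the only 2 of 40 genes called, 5.0% of them, where 4.98% of all genes were called, 1.97% higher and 3.01% lower. The median change was 0.07 log2 for the 40 genes and -0.01 for all genes. Without regenerated replicate 4 the count was 5 genes, with Mcm6 (-0.50, limma adjusted p = 0.00774), Ccnd3 (0.63, adjusted p = 0.0377) and E2f1 (0.43, adjusted p = 0.0358) added to Pcna and Ccnd2. Over all genes the count also grew in that setting, to 2127 of 30142 from 1500. Mcm3 passed when regenerated replicate 1 was left out (-0.64, limma adjusted p = 0.0268) and Ccne1 when castrated replicate 3 was (0.98, adjusted p = 0.0152). Mcm6 read 3.84, 3.86, 3.80 and 4.24, where only replicate 4 reached the castrated range. E2f1 read 4.29, 4.37, 4.47 and 4.04, all above the 3.89 to 4.01 of castrated arrays and below background in 3 of 4.

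Tyms read 7.73, 7.11, 8.05 and 6.79 and Gins2 5.43 to 5.59, each below every castrated array, and neither passed (limma adjusted p = 0.157 and 0.0950). Rrm2 read 4.29, 5.09, 4.26 and 3.96, above the 3.77 to 3.91 of castrated arrays, and did not pass either (0.55 ± 0.22, adjusted p = 0.205). Cdk6 read 6.73, 7.30, 6.49 and 7.48, below the castrated arrays (-0.93 ± 0.35, adjusted p = 0.186). Cdkn1a was 10.13 ± 0.40 (SD, n = 4) against 10.60 ± 0.73 (n = 3), with overlap (-0.47 ± 0.38, SE; limma adjusted p = 0.578). None of the 12 S to M phase genes was called, and none had an unadjusted limma p under 0.05, where 18.9% of all genes had. Of the 40 genes 12 (30.0%) had one, among them all 4 nucleotide supply genes and 4 of 9 licensing genes. There was no overlap for 11 of the 40 genes, or 27.5%, against 16% of all genes. The mean over the leukocyte markers was 4.14 to 4.52 in regenerated arrays, below the castrated ones. That over the basal markers was 5.90 to 6.37, across the castrated range. Among 7 luminal markers, Krt8 and Krt18 were called lower and Hoxb13 and Pbsn higher, 57.1% against 4.98% of all genes. Elsewhere Cd3e (-4.04 log2) and the basal gene Krt17 (-1.15) were called lower and the stromal gene Dcn (3.83) higher. No endothelial marker was called. The part of these markers in the changes of cell cycle genes was not tested.

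**Figure D4:**
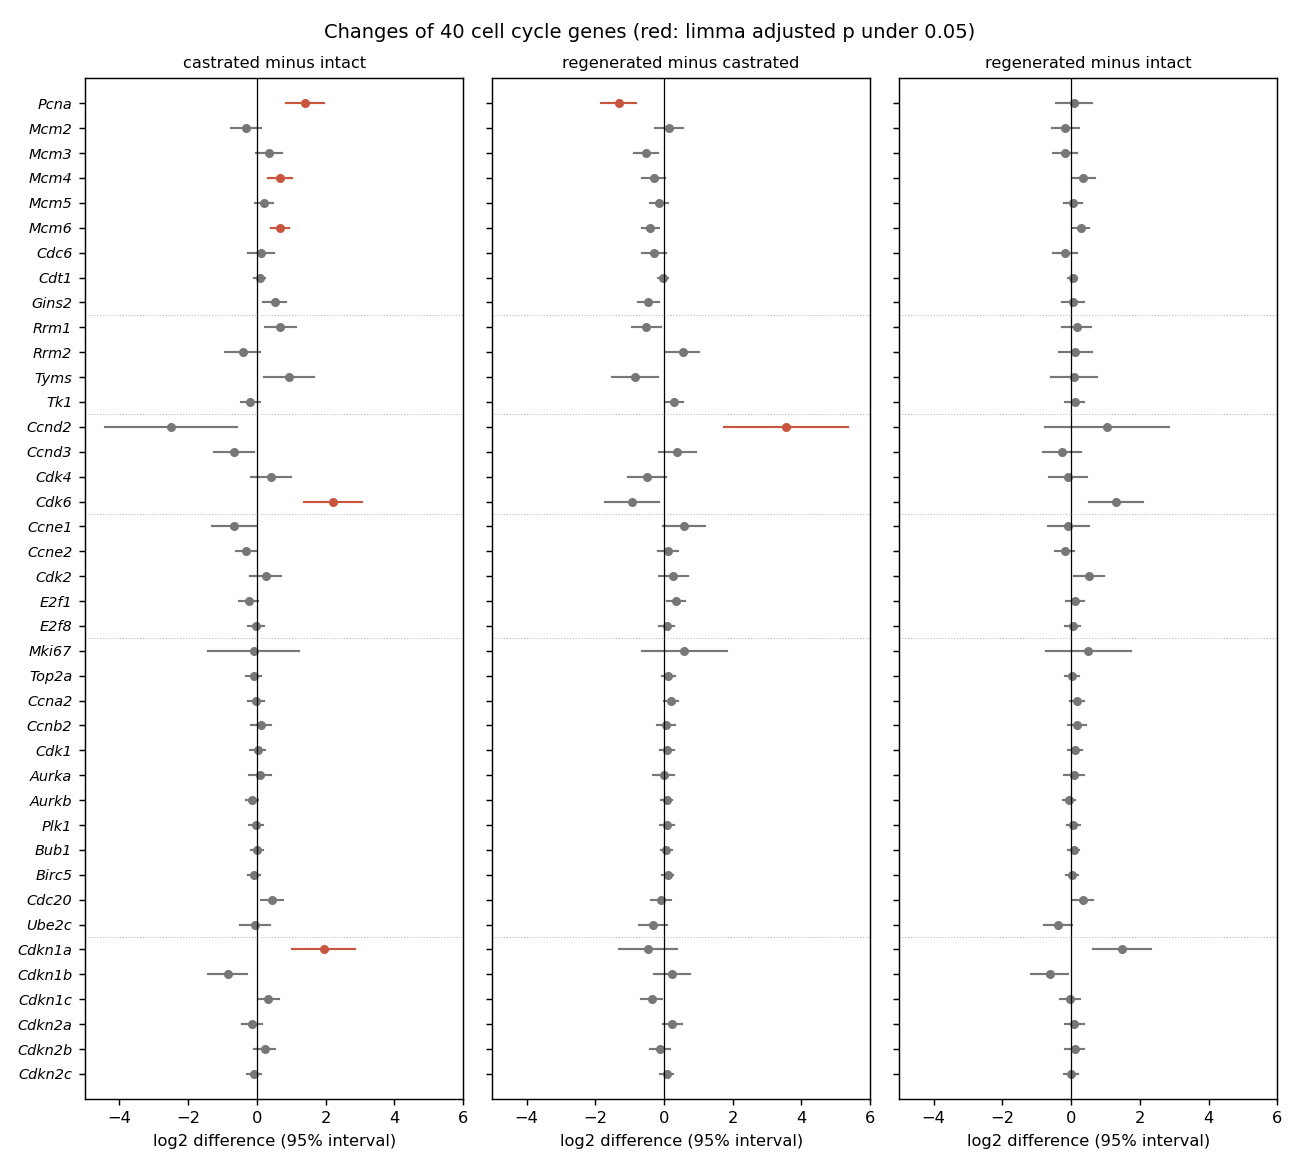
Fitted log2 differences (horizontal axes) of the 40 genes with 95% intervals from limma, for castrated minus intact, regenerated minus castrated and regenerated minus intact, ordered by role with dotted lines between the roles. Genes with an adjusted p under 0.05 are red: 5 in the first panel, 2 in the second and none in the third.

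Set against intact cells, the regenerated cells held no called change among the 40 genes, where 0.0365% of all genes were called, 0.0332% higher and 0.00332% lower. Of the 40, 7 (17.5%) had an unadjusted p under 0.05 in limma, where 10% of all genes had. Cdkn1a and Cdk6 had the largest differences of those 7. Cdkn1a read 10.26, 10.49, 10.21 and 9.56 in regenerated arrays, all above the intact values of 8.05 to 9.11 (1.47 log2, 95% interval 0.62 to 2.32, limma adjusted p = 0.269). Cdk6, at 6.49 to 7.48, was above the intact values of 4.88 to 6.42 (1.30 log2, interval 0.51 to 2.08, limma adjusted p = 0.269). Cdkn1b was 7.19 ± 0.31 (SD, n = 4) against 7.81 ± 0.31 (n = 3), without overlap (-0.62 ± 0.24, SE; limma adjusted p = 0.413). Cdk2, the partner of the E cyclins, was 6.66 ± 0.18 against 6.14 ± 0.27, without overlap (limma adjusted p = 0.393). For Pcna the difference was 0.09 log2, with an interval from -0.43 to 0.60. There was no overlap for 6 of the 40 genes, or 15%, against 9.65% of all genes.

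Over the 10 arrays the 40 genes differed widely in how much they moved. Ccnd2 had the widest range, 5.68 log2, followed by Cdkn1a (3.39), Cdk6 (3.34) and Mki67 (2.79), and no other gene of the 40 ranged over more than 2. The median range was 0.75, against 0.65 over all genes, and it was 0.41 for the S to M phase genes. Cdt1, a licensing factor degraded in S phase, ranged over 0.21, from 3.39 to 3.60, below background throughout.

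Other genes of the pathway were read from lists chosen by function. Of 40 measured other replication genes, 6 rose and 3 fell after castration, 22.5% of them, where 8.01% of all genes were called, 4.82% higher and 3.19% lower. Gins1, a partner of Gins2, rose by 1.40 ± 0.30 log2 (SE), Orc3 of the origin recognition complex by 1.33 ± 0.25, and Rpa3, of the single-strand binding protein, by 0.96 ± 0.20, whereas Rrm2b, the p53-induced ribonucleotide reductase subunit that serves resting cells, fell by 0.89 ± 0.23 (limma adjusted p = 0.0172, 0.00933, 0.0165 and 0.0432). The median of the list was 0.18. In regenerated against castrated arrays Orc3 fell by 1.31 ± 0.23 and Rpa3 by 0.81 ± 0.19 (limma adjusted p = 0.00940 and 0.0351), and none of the 40 rose (5.0% called, against 4.98% of all genes). Rpa3 lost the latter call when any of 8 arrays was left out, the exceptions being castrated replicate 1 and regenerated replicate 1 (limma adjusted p = 0.0503 to 0.114). Orc3 read 6.48 to 7.05 in intact, 7.70 to 8.49 in castrated and 6.43 to 6.93 in regenerated arrays. Gins1 lost its call after castration without intact replicate 1 (0.0820) or 2 (0.0657). Rpa3 lost it without intact replicate 1 (0.0792) or castrated replicate 2 (0.0556) or 3 (0.05003), and Rrm2b when any of 6 arrays was left out (0.0585 to 0.151).

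Of 48 other mitotic genes, 4 rose and 2 fell after castration, 12.5% against 8.01% of all genes, and the median of 0.04 log2 was that of all genes. Wee1, the kinase that holds Cdk1 inactive, read 8.92 to 9.10 in intact, 12.36, 12.45 and 10.72 in castrated and 9.08 to 9.31 in regenerated arrays. It rose by 2.80 ± 0.40 log2 and fell by 2.65 ± 0.37 after testosterone (SE; limma adjusted p = 0.00214 and 0.00270). Ncaph, a condensin subunit, took the other course: it read 9.00 to 9.94 in intact, 5.98 to 6.16 in castrated and 9.72, 9.20, 9.87 and 7.51 in regenerated arrays, a fall of 3.28 ± 0.53 and a rise of 3.01 ± 0.50 (adjusted p = 0.00460 and 0.00696). The spindle checkpoint gene Mad2l1 rose by 2.24 ± 0.59 (limma adjusted p = 0.0442), with 9.88 in castrated replicate 3 and 7.12 and 7.18 in the others, and the securin Pttg1 rose by 1.19 ± 0.24 (adjusted p = 0.0144). Mad2l1 lost its call without any of the 3 intact arrays (0.0936 to 0.139) or regenerated replicate 1, 2 or 3 (0.0602 to 0.0627), and Pttg1 without intact replicate 1 (0.0736) or castrated replicate 3 (0.0531). The Mad2l1 call was also lost without the trend, with centred arrays, with the replicate block and with only the 2 groups (limma adjusted p = 0.0625, 0.0514, 0.0693 and 0.0994). Spc25, a kinetochore subunit, changed by -0.78 ± 0.14 after castration and rose by 0.87 ± 0.13 after testosterone (limma adjusted p = 0.00871 and 0.00478). In all, 2 of the 48 rose and 1 fell after testosterone, 6.25% against 4.98% of all genes.

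Among 25 regulators of the Rb, E2F and DREAM system 1 rose and 2 fell after castration, 12.0% against 8.01% of all genes, with a median of -0.04. E2f5, an E2F factor that represses with the pocket proteins, rose by 2.31 ± 0.24 log2, from 7.28, 7.31 and 7.93 to 10.10, 9.60 and 9.75, and fell by 1.51 ± 0.23 after testosterone (SE; limma adjusted p = 0.000458 and 0.00401). Cdc25a, the phosphatase that activates Cdk2 and Cdk1, fell by 1.10 ± 0.22 and rose by 1.53 ± 0.21 (adjusted p = 0.0139 and 0.00231). Rbl2, the pocket protein p130, fell by 1.35 ± 0.33 (limma adjusted p = 0.0323). That call was lost without any of the 3 intact or 3 castrated arrays (0.0509 to 0.117), and that of Cdc25a after castration without intact replicate 1 (0.0662) or castrated replicate 2 (0.0532) or 3 (0.0511).

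Of 19 p53 targets measured beside Cdkn1a, 3 rose and 4 fell after castration, 36.8% against 8.01% of all genes (4.82% higher and 3.19% lower), with a median of 0.12. Among the 4 that fell is Rrm2b, which is also counted in the list of other replication genes. The 3 that rose were Plk2, Pmaip1 and Eda2r. Pmaip1 read 4.26, 4.04 and 4.24 in intact and 5.24, 5.04 and 5.49 in castrated arrays. Eda2r read 4.37, 4.31 and 4.48 against 5.09, 5.22 and 4.84. Plk2, a Polo-like kinase, rose by 3.55 ± 0.33 log2, from 7.43 to 7.73 in intact to 10.64 to 11.63 in castrated arrays (SE; limma adjusted p = 0.000245), and fell by 2.23 ± 0.31 after testosterone (adjusted p = 0.00259). The sestrins Sesn1 and Sesn2 fell by 1.58 ± 0.33 and 1.36 ± 0.33, and the desmosomal gene Perp changed by -1.39 ± 0.30 (limma adjusted p = 0.0160, 0.0316 and 0.0184). Mdm2, the ubiquitin ligase of p53, was 7.95 ± 0.36 (SD, n = 3) and 7.99 ± 0.05 (n = 3), and Ccng1 11.92 ± 0.44 and 12.07 ± 0.26, both chosen after their values were seen. Sesn1, Sesn2 and Perp each lost their call without intact replicate 1 (limma adjusted p = 0.0656, 0.133 and 0.0887), Sesn1 also without intact replicate 2 (0.0695) or castrated replicate 3 (0.0573). Perp lost it without castrated replicate 1 (0.0629) or 2 (0.0652), and Sesn2 without intact replicate 2 (0.116) or any castrated array (0.0673 to 0.0955). Against intact, no gene of these 4 lists was called in regenerated arrays, with 7.5%, 6.25%, 20.0% and 36.8% of them at an unadjusted limma p under 0.05, where 10% of all genes were.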

How the data were processed

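The authors deposited log2 intensities for 72688 probe sets, which the submitters' processing notes tie to the Expression Console program and its RMA method. Their versions and the genome build are not given in the sources used here. The method gives arrays a common distribution, so a change shared by all transcripts would be reduced. Array medians ran from 4.05 to 4.16, and arrays have no sequencing depth: their number limits precision. Probe sets were named by the platform annotation, which can be old, with 827 symbols updated through RefSeq (GRCm38.p6, names only). The 30604 with a single symbol gave 30142 genes, each by its probe set with the highest mean, and 2146 with several symbols were left out. limma 3.58.1 (R 4.3.3; lmFit, eBayes with trend, 3 groups) was tested on simulated data and run over all genes, two-sided, with Benjamini-Hochberg adjustment. Members, gene lists and tests were chosen with earlier results of these data known. Members called in a comparison are named in full, with Mki67, Top2a and, per other list, up to 4 called genes with the largest change. The p53 targets Pmaip1 and Eda2r and the called marker genes are named beside these. Alternatives changed the trend, weights, filter, probe set, centring, model, replicate block and arrays.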

Additional observations from a re-analysis of the deposited data

Results flagged for a closer look

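Of 42 quantities examined within the 4 regenerated arrays, 6 had an array whose gap to its nearest neighbour exceeded Dixon's 95% limit for 4 values, which chance exceeds in about 1 of 20 groups. In 4 of the 6 the array was regenerated replicate 4. It was highest for Mki67 at 6.37, where the other 3 arrays lay below their background limits, and for Mcm6 at 4.24. It was lowest for Mcm2 at 5.50 and for the cyclin D3 gene Ccnd3 at 6.73, 0.46 and 0.91 below the next. Regenerated replicate 3 was highest for Ccne2 at 4.73 and for Cdk1 at 4.63. The Mcm6, Ccne2 and Cdk1 values lay below the background limits of those arrays.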

How the results depend on the processing

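Followed were 7 called results of the 40 genes and 24 of the pathway genes, but none of marker genes. None of these 31 changed direction under the alternatives run for them. In every alternative 17 of the 31 kept their calls, 4 of the 7 and 13 of the 24. Pcna in both comparisons with castrated arrays, and Cdk6 and Mcm6 after castration, kept their calls in every alternative in which they were tested; the filter for genes above background left Mcm6 out. Of 113 uncalled results of the 40 genes, 12 were called in some alternative. The 5 genes called after castration became 3 with a least change of 1 log2 and 10 with array weights, and 3 to 7 with single arrays left out. The 2 genes called after testosterone became 1 without the mean-variance trend, 4 with array weights, and 1 to 5 with single arrays left out; against intact the count was 0 throughout, while over all genes it was 11 and ran from 0 to 78. Over all genes the counts after castration were 2414, but 4258 with array weights and 3271 without regenerated replicate 4. They were 1019 and 1200 when intact replicate 1 or 2 was dropped and 1473 when castrated replicate 2 was. After testosterone they were 1500, but 2236 with array weights and 2127 without regenerated replicate 4. They were 822 with only the 2 groups, 816 without castrated replicate 2, 871 without regenerated replicate 2 and 934 without regenerated replicate 3. Replicate numbers did not pair the arrays (3 of 9 same-number pairs correlated above 0.1, range -0.16 to 0.26). With the replicate block, which sets aside regenerated replicate 4, the counts were 5, 3 and 0, with Mcm6 (-0.50) and E2f1 (0.43) called and Ccnd2 not (3.81, limma adjusted p = 0.0585). An average of 22.0, 18.3 and 22.0 genes in intact, castrated and regenerated arrays lay above background, but 16, 12.7 and 16.5 above the highest background probe set, and 15 and 16.8 of castrated and regenerated above its 99th percentile. The mean S to M phase median was 4.20, 4.27 and 4.35, and 4.03, 4.10 and 4.12 with other mitotic genes added. The cause was not tested. Signal near background limits what can be seen of mitotic genes.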
